A study of Mus musculus with 23 samples.

Results

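The interferon response genes are the set of transcripts that a cell makes when interferon reaches it, and 44 of them were followed here in mouse liver, of 27179 genes in the count table. They were chosen by gene symbol from knowledge of the pathway, with earlier results of these data known, and all 44 symbols were found. Of these, 32 encode antiviral proteins known from the type I response, 4 encode transcription factors that carry the signal (Irf1, Irf7, Irf9 and Stat2), and 8 encode GTPases known for their induction by interferon-gamma (Gbp2, Gbp3, Gbp5, Gbp6, Gbp7, Iigp1, Irgm1 and Igtp).

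RNA was sequenced from liver tissue without visible tumors of 15 female mice, 1 count column per mouse. The study asked how loss of Icmt, the enzyme that methylates prenylated cysteines at the end of RAS proteins and others, bears on liver with mutant Braf. The 6 Ctrl mice carried Alb-Cre, Trp53 flx/flx and Icmt flx/+ with wild type Braf. The 6 ABpIF/+ mice carried Alb-Cre, Trp53 flx/flx and Icmt flx/+ with the BrafCA/+ allele, which gives an activated BRAF once Cre has acted, and the 3 ABpIF/F mice carried the same alleles with Icmt flx/flx. All groups thus shared Alb-Cre, homozygous floxed Trp53 and at least 1 floxed Icmt allele, so no group was wild type. Cre was driven by the albumin promoter, which is active in hepatocytes, so macrophages, endothelium and lymphocytes of the same livers are not its known targets. The labels give no age, and per the study's text the 3 ABpIF/F mice, all that were obtained, differed in age. The sample labels write Braf of both mutant groups as +/+, whereas the series description gives BrafCA/+. The strain label of 5 Ctrl mice (names starting malpa) differs from that of the Ctrl mouse BG3 and all mutant mice. Strain label and genotype therefore cannot be fully told apart in the comparisons with Ctrl.

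Type I interferons bind the receptor of Ifnar1 and Ifnar2, and the kinases JAK1 and TYK2 then start a phosphorylation cascade that leads STAT2 and IRF9 into the factor ISGF3. ISGF3 binds the interferon-stimulated response element (ISRE) in promoters of antiviral genes. Interferon-gamma, made by T and NK cells, binds Ifngr1 and Ifngr2 and acts through the gamma-activated site (GAS) in promoters, which drives GTPases that attack the compartments of intracellular pathogens. In liver, hepatocytes and Kupffer cells both answer interferon, and a low level of these transcripts is present without infection.

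The libraries held 24742910 to 32262649 counted reads each. The targeted gene Icmt had 27.8 to 34.7 CPM (counts scaled to a common library size by TMM) in Ctrl, 27.8 to 37.4 in ABpIF/+ and 15.7, 16.6 and 15.2 CPM in the ABpIF/F mice BG183, BG90 and BG38, so the ABpIF/F libraries were the low ones. Hepatocyte markers were abundant in every library, with 7 of 8 listed genes found. Their summed level was 101170 to 136350 CPM in Ctrl and 159100 to 223030 CPM in ABpIF/+, so these groups did not overlap. It was 215310, 189220 and 125520 CPM in BG183, BG90 and BG38, and Alb made up most of it. In addition, circadian genes set some libraries apart. A clock score, the mean log2 CPM of 9 genes high with Dbp minus that of 5 genes high with Bmal1, was 3.53 to 4.90 in 11 of the 12 Ctrl and ABpIF/+ mice, -0.20 in the Ctrl mouse malpa387, and 0.97, -1.49 and 0.14 in BG183, BG90 and BG38. Moreover, BG38 and BG90 held more neutrophil transcripts than the other libraries, with 104 and 37.3 CPM summed over 10 markers against 2.46 to 10.8 CPM elsewhere. The counts of members called are given below for all libraries and for fits without single ones of these libraries.

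The members lie in small clusters of related genes. On GRCm38, 7 lie on chromosome 5, where the Oas genes and Gbp6 are, 5 on chromosome 3 (4 Gbp genes and Ifi44), and 4 on chromosome 19 (the Ifit genes). RefSeq promoters (250 bases before to 50 after the start, build GRCm38.p6) were matched for 33 of the 44 members. The unmatched members were Oas2, Usp18, Mx1, Mx2, Zbp1, Dhx58, Ifi27l2a, Rtp4, Parp14, Gbp6 and Iigp1. The core of the ISRE, GAAANNGAAA, was searched on both strands and stood in the promoter of 20 of the 33 matched members (60.6%), against 3.99% of the 27025 genes with a promoter. It stood in 13 of 23 antiviral genes, 1 of 4 transcription factors and 6 of 6 GTPases. The GAS letters TTCNNNGAA stood in 9 of 33 members (27.3%), against 9.55% of all genes, and in 3 of the 6 GTPases (Gbp5, Gbp7 and Igtp). A match is a description of these letters, and overlapping matches were counted as 1 promoter.

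The stretches around the ISRE letters of 8 members are shown because these members stand for the patterns of change described below, with the matched letters in capitals and each sequence written 5′ to 3′ along the gene's own strand. Where TTTC is in capitals, the letters match on the opposite strand. Oas1a and Oas1g rose in ABpIF/F and were not called in ABpIF/+, and their stretches lie at chr5:120907510-120907565 (- strand) and chr5:120887596-120887651 (- strand). Oas3, Ifit1 and Isg15 fell in ABpIF/+ and rose in ABpIF/F, and theirs lie at chr5:120777705-120777754 (- strand), chr19:34640765-34640833 (+ strand) and chr4:156200855-156200916 (- strand). Bst2, Gbp7 and Igtp fell in ABpIF/+ and were not called in ABpIF/F, and theirs lie at chr8:71537567-71537622 (- strand), chr3:142530263-142530312 (+ strand) and chr11:58199502-58199551 (+ strand).
Oas1a: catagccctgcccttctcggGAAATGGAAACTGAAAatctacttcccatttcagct
Oas1g: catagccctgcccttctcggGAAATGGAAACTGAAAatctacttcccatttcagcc
Oas3: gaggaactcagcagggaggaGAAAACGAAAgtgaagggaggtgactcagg
Ifit1: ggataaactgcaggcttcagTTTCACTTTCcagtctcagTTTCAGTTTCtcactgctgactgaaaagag
Isg15: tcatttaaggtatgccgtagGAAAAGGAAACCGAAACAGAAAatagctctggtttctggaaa
Bst2: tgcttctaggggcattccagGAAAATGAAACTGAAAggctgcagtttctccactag
Gbp7: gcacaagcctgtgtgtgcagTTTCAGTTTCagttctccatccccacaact
Igtp: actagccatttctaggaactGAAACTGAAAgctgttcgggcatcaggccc

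Isg15 had 3 overlapping ISRE matches, between 78 and 66 bases before its start, Igtp had 1 at 34 bases, and Ifit1 had 2, at 104 and 85 bases. Oas1a and Oas1g had the same 2 overlapping matches in nearly the same stretch. Against Ctrl, the letters stood in 9 of 12 matched members called down in ABpIF/+ alone, in 4 of 7 called down in ABpIF/+ and up in ABpIF/F, in 3 of 8 called up in ABpIF/F alone, and in 4 of 6 called in neither.

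Most members fell in ABpIF/+ vs Ctrl livers, fewer than that rose in ABpIF/F vs Ctrl, and nearly all were lower in ABpIF/+ than in ABpIF/F. Calls needed a change of at least 2-fold together with an adjusted p under 0.01 from edgeR's quasi-likelihood test (Benjamini-Hochberg over all genes). In ABpIF/+ vs Ctrl, 26 of 44 members were downregulated and 0 upregulated, where 7.13% of the 20380 genes with a read were downregulated and 6.26% upregulated. In ABpIF/F vs Ctrl, 19 members were upregulated and 0 downregulated, against 6.06% and 3.17% of all genes. The direct comparison of ABpIF/+ with ABpIF/F had 39 members downregulated in ABpIF/+ and 0 upregulated, against 7.32% and 2.35%. For these counts of 0, DESeq2 also called 0 members, and 0 members had an unadjusted p under 0.05 in that direction. The median log2 fold change of the members was -1.18, 0.94 and -2.18 in these comparisons, and that of all genes with a read was 0.00, 0.09 and -0.05. The comparisons share their groups of mice and are not independent of each other. In bulk tissue, fewer cells of a type and less RNA per cell cannot be told apart.

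**Figure D1:**
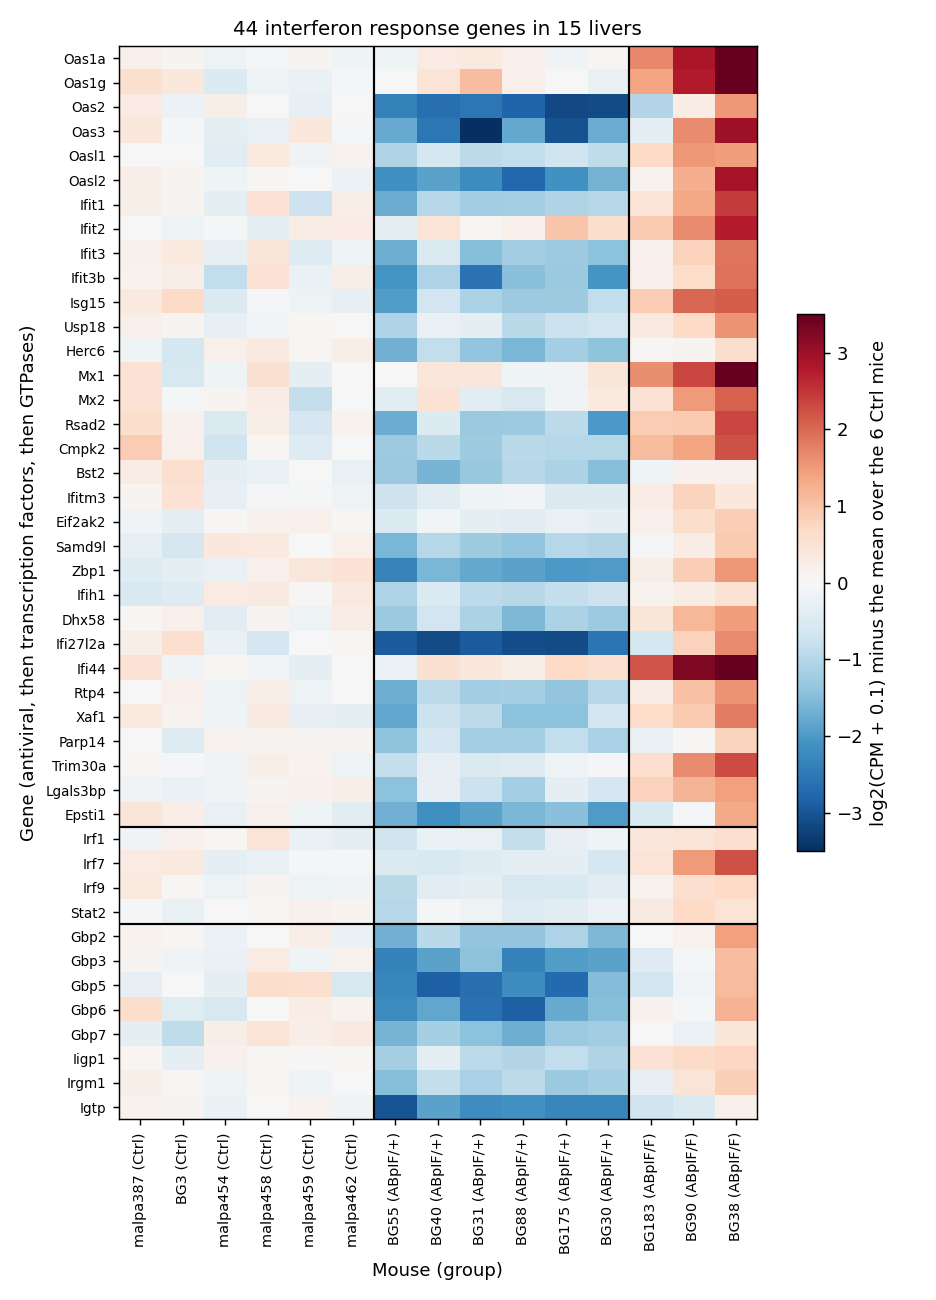
Each row is a member and each column a mouse, with the 3 groups parted by vertical lines and the antiviral genes, transcription factors and GTPases parted by horizontal lines. Color gives log2(CPM + 0.1) minus the mean over the 6 Ctrl mice, and most rows are blue in the 6 ABpIF/+ mice and reddest in BG38, the highest ABpIF/F mouse for 40 of 44 members.

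The groups separated by single mice as well. Every ABpIF/+ mouse lay below every ABpIF/F mouse for 42 of 44 members (12.7% of all genes), and the 2 exceptions were Ifit2 and Mx2. Every ABpIF/+ mouse lay below every Ctrl mouse for 28 members (10.8% of all genes). Every ABpIF/F mouse lay above every Ctrl mouse for 19 members (12.4% of all genes). Over the 12316 genes whose mean reached 1 CPM these shares were 14.9%, 15.8% and 15.1%. By calls against Ctrl, 17 members fell in ABpIF/+ and were not called in ABpIF/F, 9 fell in ABpIF/+ and rose in ABpIF/F, 10 rose in ABpIF/F and were not called in ABpIF/+, and 8 were called in neither. The shares of all genes with these joint patterns were not computed.

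The counts for ABpIF/F depended on single mice. BG38 was the highest of the 3 ABpIF/F mice for 40 members and BG183 the lowest for 42, while over genes of at least 1 CPM BG38 was highest for 36.9% and BG183 lowest for 32.7%. Without BG38, 10 members were upregulated in ABpIF/F vs Ctrl, all of them among the 19: Oas1a, Oas1g, Oasl1, Ifit2, Isg15, Mx1, Cmpk2, Ifi44, Trim30a and Irf7. Without BG183 the count was 25, and without BG90 it was 19. With the clock score as a covariate the count was 2 (Oas1a and Ifi44), and the downregulated members of ABpIF/+ vs ABpIF/F went from 39 to 17. Calls over all genes changed as well. In ABpIF/F vs Ctrl the main fit called 1236 genes up and 647 down. In both directions together, 1212 were called without BG38, 2276 without BG183, 1624 without BG90 and 703 with the clock score. In ABpIF/+ vs ABpIF/F the main fit called 478 up and 1491 down, against 416 together with the clock score. The median log2 fold changes moved less under that covariate, from 0.94 to 0.88 and from -2.18 to -1.99. In malpa387, the Ctrl mouse with the low clock score, 27 members lay within the range of the other 5 Ctrl mice, 15 above it and 2 below it. The shares of all genes placed so in malpa387 were not computed, so these counts are a description.

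**Figure D2:**
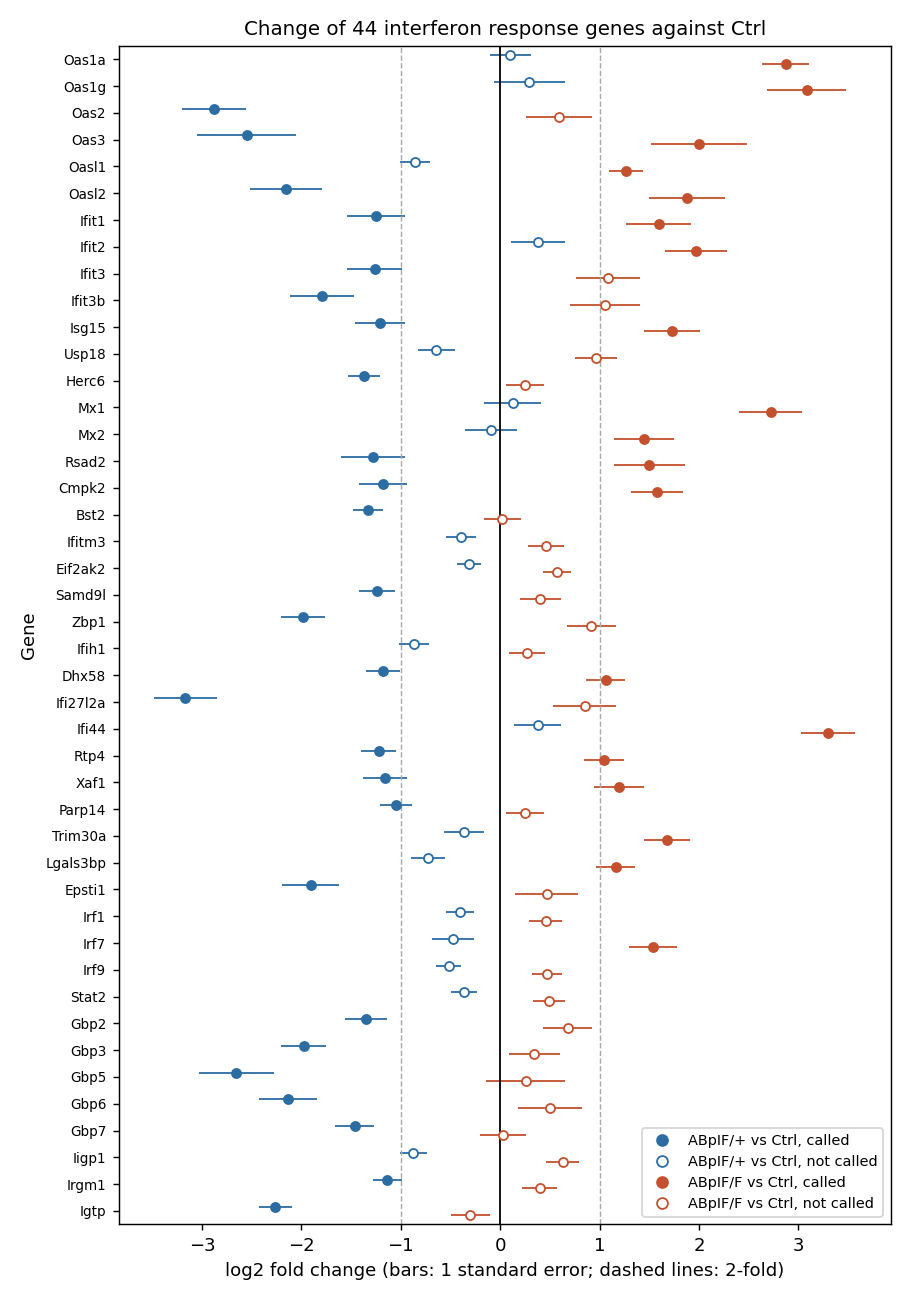
Points are log2 fold changes of each member against Ctrl with 1 standard error, blue for ABpIF/+ and red for ABpIF/F, filled where called. The GTPases at the bottom lie left of 0 in ABpIF/+ and near 0 in ABpIF/F, whereas Ifi44, Oas1g, Oas1a and Mx1 reach 2.72 to 3.30 in ABpIF/F and lie near 0 in ABpIF/+.

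The interferon genes themselves were close to silent. Of 19 type I and III interferon genes, 17 had no read in any of the 15 libraries, Ifna7 had 1 read in all, and Ifnk had 13 in all and at most 2 in a mouse. A count of 0 allows up to 3 counts, which is 0.0831 to 0.123 CPM in these libraries and covers counting error only. Ifng, the ligand of the gamma response, had at most 3 counts in a Ctrl mouse, 5 in an ABpIF/+ mouse (BG40 and BG30) and 8 in an ABpIF/F mouse (BG38), and its differences were not detectable at this depth.

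Of 6 receptor genes, 4 were called in no comparison. Ifnar1 and Ifnar2, the type I receptor, were called in no comparison, with Ifnar1 at 38.5 to 47.2 CPM (median 42.8) in Ctrl, 50.5 to 65.6 CPM (median 54.6) in ABpIF/+ and 50.0, 45.9 and 56.4 CPM in BG183, BG90 and BG38. The rise of Ifnar1 in ABpIF/+ vs Ctrl was under 2-fold (0.39 ± 0.099, adjusted p = 0.004675). The ligand-binding chain of the gamma receptor, Ifngr1, was instead upregulated in both mutant groups. It had 15.2 to 22.5 CPM (median 19) in Ctrl, 34.8 to 47.4 CPM (median 39.9) in ABpIF/+ and 44.6, 66.1 and 72.3 CPM in the ABpIF/F mice, with no overlap of either mutant group with Ctrl. Its log2 fold change was 1.07 ± 0.12, adjusted p = 5.66e-07 in ABpIF/+ and 1.67 ± 0.14, adjusted p = 2.69e-08 in ABpIF/F. Ifngr2, the second chain, was called in no comparison, and was under 2-fold lower in ABpIF/+ than in ABpIF/F (-0.82 ± 0.14, adjusted p = 0.000267). Ifnlr1, of the type III receptor, rose from 0.082 to 0.298 CPM in Ctrl to 1.06 to 2.94 CPM in ABpIF/+ (3.35 ± 0.43, adjusted p = 2.59e-06) and 1.21, 1.25 and 3.82 CPM in ABpIF/F (3.59 ± 0.47, adjusted p = 8.51e-06), and its partner Il10rb was not called.

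The kinases Jak1, Jak2 and Tyk2 were called in no comparison, with log2 fold changes between -0.40 and 0.25. Irf5, which drives cytokine genes in myeloid cells, was downregulated in ABpIF/+ (-1.31 ± 0.13, adjusted p = 1.22e-07). Irf8, a factor of macrophages and dendritic cells, was downregulated against ABpIF/F (-1.40 ± 0.22, adjusted p = 0.000114). Irf2 and Irf3 were not called.

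Active enzymes of the OAS family make short oligoadenylates on sensing double-stranded RNA, an early step of antiviral RNA decay, and Oasl1 has another role, given below. All 6 members were lower in ABpIF/+ than in ABpIF/F, 5 rose in ABpIF/F vs Ctrl, and 3 fell in ABpIF/+ vs Ctrl (Oas2, Oas3 and Oasl2). Oas3, which prefers long RNA, had 1.59 to 2.67 CPM (median 1.93) in Ctrl, 0.0806 to 0.546 CPM (median 0.393) in ABpIF/+ and 1.6, 6.68 and 16.6 CPM in BG183, BG90 and BG38. The ABpIF/+ mice did not overlap either group, while BG183 lay just within the Ctrl range. The log2 fold change was -2.55 ± 0.49, adjusted p = 0.0007 in ABpIF/+ vs Ctrl, 2.00 ± 0.48, adjusted p = 0.00672 in ABpIF/F vs Ctrl, and -4.55 ± 0.54, adjusted p = 2.13e-05 in ABpIF/+ vs ABpIF/F, the largest in size among the 44 members. The call over Ctrl was lost under 10 of 22 other settings, among them leaving out BG38 or BG90.

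Oas1a behaved otherwise. It had 3.39 to 4.32 CPM (median 3.91) in Ctrl and 3.43 to 4.84 CPM (median 4.17) in ABpIF/+, and 12.5, 28.4 and 43.6 CPM in the ABpIF/F mice. Ctrl and ABpIF/+ overlapped (0.10 ± 0.21, adjusted p = 0.992) and every ABpIF/F mouse lay above both, at 2.87 ± 0.24, adjusted p = 1.96e-08 against Ctrl, a 7.33-fold rise. This rise was called without BG38 and with the clock score as a covariate. Oas1g had the same pattern, but 32.4% of the 150-base stretches of Oas1a transcripts also occur in Oas1g, so the counts of this pair are not independent.

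Oasl1, which holds back translation of Irf7, had 9.82 to 16.4 CPM (median 13) in Ctrl, 6.19 to 8.4 CPM (median 6.93) in ABpIF/+ and 20.9, 36.9 and 35.8 CPM in the ABpIF/F mice. The 3 groups did not overlap. It rose in ABpIF/F (1.27 ± 0.17, adjusted p = 1.07e-05), while the fall in ABpIF/+ stayed under 2-fold (-0.86 ± 0.15, adjusted p = 9.9e-05). Oas2 and Oasl2 both fell by over 4-fold in ABpIF/+, by 2.88 and 2.16 on the log2 scale. In ABpIF/F, Oasl2 ran from 7.64 CPM in BG183, within the Ctrl range, to 52.4 CPM in BG38.

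**Figure D3:**
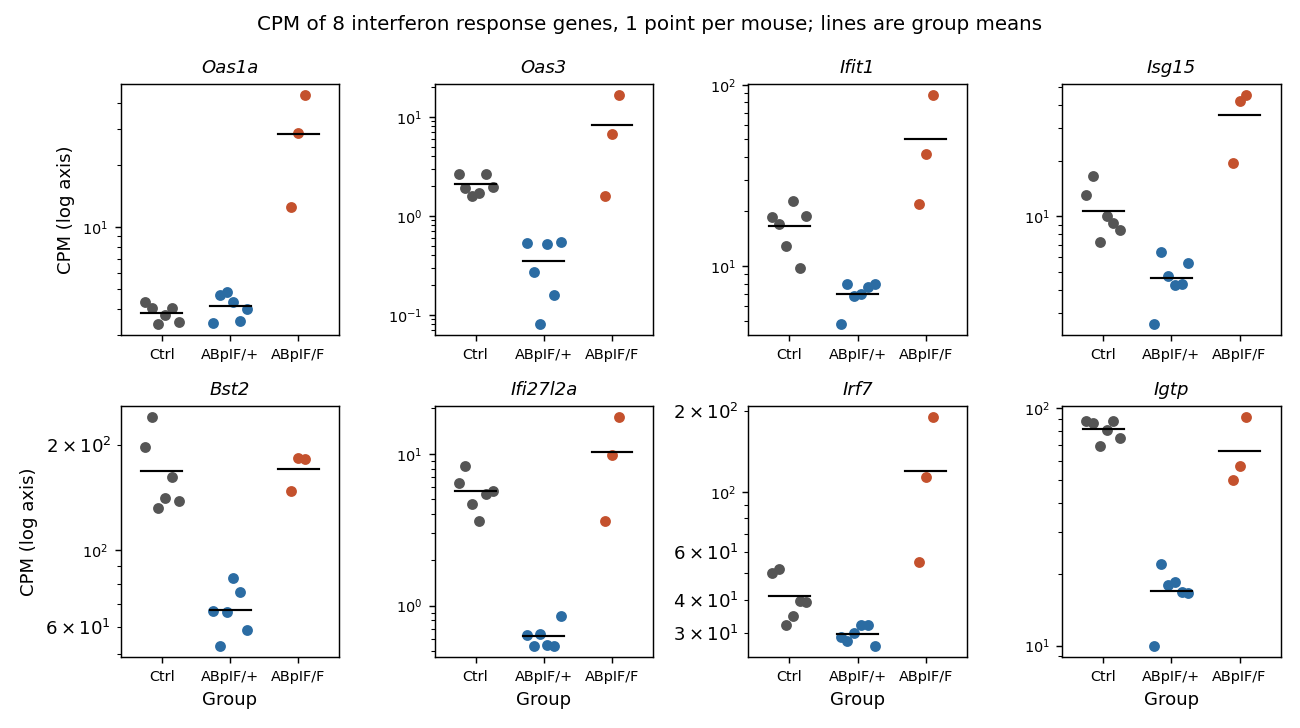
Each panel gives the CPM of a member on a log axis, 1 point per mouse, with a line at the group mean. Oas1a overlaps between Ctrl and ABpIF/+ and is higher in all 3 ABpIF/F mice, while Igtp and Bst2 are lower in all 6 ABpIF/+ mice and overlap between Ctrl and ABpIF/F.

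The IFIT proteins bind foreign RNA caps and block translation. Of the 4 members, 3 fell in ABpIF/+ (Ifit1, Ifit3 and Ifit3b), 2 rose in ABpIF/F (Ifit1 and Ifit2), and all 4 were lower in ABpIF/+ than in ABpIF/F. Ifit1, which binds RNA lacking a methylated cap, had 9.7 to 22.9 CPM (median 17.9) in Ctrl, 4.79 to 7.95 CPM (median 7.35) in ABpIF/+ and 22, 41.3 and 87.7 CPM in the ABpIF/F mice. BG183 lay within the Ctrl range, and the ABpIF/+ mice lay below both groups. Its log2 fold change was -1.25 ± 0.29, adjusted p = 0.00455 in ABpIF/+ and 1.59 ± 0.33, adjusted p = 0.00303 in ABpIF/F, and the rise was not called without BG38. The call of Ifit1 in ABpIF/+ vs Ctrl was lost on leaving out any 1 of 6 mice (malpa387, BG3, malpa458, malpa462, BG55 or BG31), with adjusted p between 0.0111 and 0.0121.

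Ifit3 had 15.7 to 29.3 CPM (median 21.8) in Ctrl, 6.64 to 15.2 CPM (median 8.47) in ABpIF/+ and 24, 38.3 and 79.4 CPM in the ABpIF/F mice. Its fall in ABpIF/+ was -1.26 ± 0.28, adjusted p = 0.00302. Against Ctrl its ABpIF/F level was not called (1.08 ± 0.32, adjusted p = 0.0289). Ifit3b shares 16.0% of its 150-base stretches with Ifit3, and had 2.79 to 7.41 CPM (median 5.79), 0.766 to 2.36 CPM (median 1.48) and 5.87, 8.07 and 19.5 CPM in the same order, with -1.80 ± 0.32, adjusted p = 0.000296 in ABpIF/+ vs Ctrl, 1.06 ± 0.35, adjusted p = 0.0463 in ABpIF/F vs Ctrl and -2.85 ± 0.36, adjusted p = 3.12e-05 in ABpIF/+ vs ABpIF/F. Ifit2 differed from its neighbors on chromosome 19, with 5.04 to 7.83 CPM (median 6.22) in Ctrl and 5.09 to 12.6 CPM (median 8.06) in ABpIF/+, which overlap, and 12.1, 20.1 and 43.3 CPM in ABpIF/F.

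ISG15 is a ubiquitin-like protein that is attached to other proteins, Herc6 encodes its ligase in mice, and Usp18 removes it and restrains the type I receptor. Isg15 had 7.24 to 16.5 CPM (median 9.59) in Ctrl, 2.6 to 6.42 CPM (median 4.52) in ABpIF/+ and 19.4, 42 and 45.5 CPM in BG183, BG90 and BG38, with no overlap among the groups. Its log2 fold change was -1.21 ± 0.25, adjusted p = 0.00139 in ABpIF/+ and 1.73 ± 0.28, adjusted p = 0.00027 in ABpIF/F, and both calls were kept without BG38. Herc6 fell in ABpIF/+, with 13.7 to 26.2 CPM (median 23) in Ctrl, 6.53 to 11.5 CPM (median 7.95) in ABpIF/+ and 21.8, 22.5 and 32.5 CPM in ABpIF/F, so BG183 and BG90 lay inside the Ctrl range. Its log2 fold change was -1.37 ± 0.16, adjusted p = 9.62e-07 in ABpIF/+ and 0.24 ± 0.19, adjusted p = 0.501 in ABpIF/F, and 17.9% of its 150-base stretches also occur in the predicted gene Gm45193. Usp18 was called against Ctrl in neither group, with -0.64 and 0.97 on the log2 scale, and was 3.05-fold lower in ABpIF/+ than in ABpIF/F (adjusted p = 2.47e-05).

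Of the 9 further antiviral effectors, 5 fell in ABpIF/+ (Rsad2, Cmpk2, Bst2, Samd9l and Zbp1), 4 rose in ABpIF/F (Mx1, Mx2, Rsad2 and Cmpk2), and 7 were downregulated in ABpIF/+ vs ABpIF/F. Bst2 encodes tetherin, which holds budding virus at the cell surface. It had 132 to 241 CPM (median 152) in Ctrl, 52.9 to 82.9 CPM (median 66.5) in ABpIF/+ and 148, 184 and 182 CPM in the ABpIF/F mice, which all lay within the Ctrl range. The fall in ABpIF/+ was -1.33 ± 0.15, adjusted p = 5.71e-07 and the ABpIF/F difference from Ctrl 0.02 ± 0.18, adjusted p = 1. Ifitm3, which blocks viral entry from endosomes, changed by less than 2-fold in every comparison. Its levels were 322 to 554 CPM (median 369.6) in Ctrl, 236 to 362 CPM (median 291) in ABpIF/+ and 463, 671 and 505 CPM in ABpIF/F, with -0.86 ± 0.18, adjusted p = 0.00158 between the mutant groups.

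Zbp1, a sensor of left-handed nucleic acid that can trigger necroptosis, had 12.6 to 24.6 CPM (median 17.1) in Ctrl, 3.4 to 5.73 CPM (median 4.51) in ABpIF/+ and 20.0, 31.7 and 50.3 CPM in the ABpIF/F mice. It fell in ABpIF/+ (-1.99 ± 0.22, adjusted p = 1.28e-06), and in ABpIF/F missed both thresholds (0.92 ± 0.24, adjusted p = 0.0122). Mx1, a GTPase against influenza virus, was not called in ABpIF/+ (0.12) and had 5.58, 9.25 and 21.2 CPM in ABpIF/F against 1.15 to 2.57 CPM in Ctrl, a 6.58-fold rise. Mx2 was not called in ABpIF/+ (-0.10) and was raised by 1.45 in ABpIF/F, where BG183 at 7.7 CPM lay within the Ctrl range. Rsad2 (viperin) and Cmpk2, neighbors on chromosome 12 with roles in antiviral nucleotides, fell by 1.28 and 1.18 in ABpIF/+ and rose by 1.50 and 1.57 in ABpIF/F. Eif2ak2, the RNA-activated kinase PKR, stayed under 2-fold in all 3 comparisons.

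Both RNA sensors of the set were lowest in ABpIF/+. Ifih1 encodes MDA5, a sensor of long double-stranded RNA, and had 34.9 to 64.3 CPM (median 56.4) in Ctrl, 23.6 to 36.4 CPM (median 27.4) in ABpIF/+ and 54.9, 60.8 and 72 CPM in ABpIF/F. The lowest Ctrl mouse overlapped with ABpIF/+, and the fall of 0.87 on the log2 scale was under 2-fold (adjusted p = 0.000129). Against ABpIF/F it was called (-1.14 ± 0.18, adjusted p = 0.000118). Dhx58 encodes LGP2, which tunes MDA5, and had 10.0 to 15.8 CPM (median 14), 4.35 to 8.28 CPM (median 5.75) and 17.9, 29.5 and 36.4 CPM in the same order, with no overlap among the 3 groups. It fell in ABpIF/+ (-1.18 ± 0.17, adjusted p = 1.43e-05) and rose in ABpIF/F (1.06 ± 0.20, adjusted p = 0.000427), and the rise was not called without BG38.

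Of the 8 other antiviral genes, 5 fell in ABpIF/+ (Ifi27l2a, Rtp4, Xaf1, Parp14 and Epsti1), 5 rose in ABpIF/F (Ifi44, Rtp4, Xaf1, Trim30a and Lgals3bp), and all 8 were downregulated in ABpIF/+ vs ABpIF/F. Ifi27l2a, which encodes a small interferon-induced protein of the same family as human IFI27, had the deepest fall of the 44 members in ABpIF/+ vs Ctrl. It had 3.62 to 8.37 CPM (median 5.59) in Ctrl, 0.542 to 0.853 CPM (median 0.597) in ABpIF/+ and 3.59, 9.75 and 17.4 CPM in the ABpIF/F mice. The ABpIF/+ mice were 8.98-fold below Ctrl (-3.17 ± 0.32, adjusted p = 1.35e-07) and no ABpIF/+ mouse reached 1 CPM. BG183 lay just below the lowest Ctrl mouse and BG90 and BG38 above the highest, and the ABpIF/F difference was not called (0.85 ± 0.32, adjusted p = 0.0738).

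Ifi44 had the largest rise in ABpIF/F, with 4.42 to 7.97 CPM in Ctrl, 4.87 to 9.11 CPM in ABpIF/+ and 26.1, 54.4 and 88 CPM in the ABpIF/F mice. That is 9.86-fold over Ctrl (adjusted p = 2.04e-07), called also without BG38 and with the clock score as a covariate. Parp14, an ADP-ribosyltransferase, had 40.5 to 60.5 CPM (median 59.6) in Ctrl, 21 to 36.7 CPM (median 25) in ABpIF/+ and 47.5, 57.3 and 95 CPM in ABpIF/F, and its fall in ABpIF/+ was close to 2-fold (-1.05 ± 0.16, adjusted p = 3.18e-05) and not called without BG55. Its ABpIF/F difference from Ctrl was 0.25 ± 0.19, adjusted p = 0.489. Lgals3bp, a secreted galectin-binding glycoprotein, had 20.8 to 28.6 CPM (median 24.2), 9.02 to 19.9 CPM (median 15.3) and 42.4, 55.4 and 66.6 CPM, with all groups apart. It rose in ABpIF/F (1.16 ± 0.20, adjusted p = 0.000271, not called without BG38), and its fall in ABpIF/+ was under 2-fold (-0.72 ± 0.17, adjusted p = 0.00298).

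The 4 transcription factors changed by less than 2-fold with 1 exception. None was called in ABpIF/+ vs Ctrl, with log2 fold changes of -0.41 for Irf1, -0.47 for Irf7, -0.52 for Irf9 and -0.36 for Stat2. Irf7, which amplifies the type I response, was the exception, in ABpIF/F. It had 32.2 to 51.8 CPM (median 39.4) in Ctrl, 26.9 to 32.2 CPM (median 29.5) in ABpIF/+ and 55.1, 114 and 190.4 CPM in BG183, BG90 and BG38, every one above every other mouse. The rise was 1.54 ± 0.24, adjusted p = 0.000187, kept without BG38 and lost with the clock score as a covariate. Stat2 had 60.9 to 81.8 CPM (median 74.8) in Ctrl, 36.5 to 70.2 CPM (median 60.1) in ABpIF/+ and 91.3, 118 and 102 CPM in ABpIF/F, above Ctrl in all 3 mice but by less than 2-fold (0.49 ± 0.16, adjusted p = 0.0357). Irf1, which responds to interferon-gamma, and Irf9, the DNA-binding part of ISGF3, were 1.82-fold and 1.99-fold lower in ABpIF/+ than in ABpIF/F, with adjusted p = 0.000712 and 7.84e-05.

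The interferon-gamma induced GTPases fell in ABpIF/+ and stood near the Ctrl level in ABpIF/F. They comprise guanylate-binding proteins (Gbp) and immunity-related GTPases (Iigp1, Irgm1 and Igtp), which assemble on vacuoles of intracellular microbes. Of 8 members, 7 were downregulated in ABpIF/+ vs Ctrl and 8 in ABpIF/+ vs ABpIF/F, and 0 were called in ABpIF/F vs Ctrl by edgeR or DESeq2. In that comparison 3 of the 8 had an unadjusted p under 0.05, all of them higher in ABpIF/F. Leaving out any mouse in turn likewise gave 0 calls among them there. Their median log2 fold change was -1.72 in ABpIF/+ vs Ctrl, 0.37 in ABpIF/F vs Ctrl and -2.00 between the mutant groups.

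Igtp, also called Irgm3, had the smallest adjusted p of the 44 members in ABpIF/+ vs Ctrl. It had 69.7 to 88.4 CPM (median 84.1) in Ctrl, 9.96 to 22.1 CPM (median 17.4) in ABpIF/+ and 50.1, 56.9 and 91.9 CPM in the ABpIF/F mice, so that BG183 and BG90 lay below every Ctrl mouse and BG38 above. The fall in ABpIF/+ was 4.79-fold (-2.26 ± 0.17, adjusted p = 1.52e-09), and the ABpIF/F difference from Ctrl was -0.30 ± 0.20, adjusted p = 0.387. Iigp1, which coats the vacuole of Toxoplasma, had 298 to 415 CPM (median 388) in Ctrl, 169 to 299 CPM (median 191) in ABpIF/+ and 538, 600.0 and 616 CPM in ABpIF/F, above every Ctrl mouse. The ABpIF/+ mouse BG40 stood just above the lowest Ctrl mouse, and changes against Ctrl were under 2-fold in both groups (-0.87 ± 0.14, adjusted p = 4.51e-05 and 0.63 ± 0.17, adjusted p = 0.00934).

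Gbp5, which aids assembly of inflammasomes, had 1.34 to 3.17 CPM (median 1.82) in Ctrl, 0.194 to 0.648 CPM (median 0.291) in ABpIF/+ and 1.27, 1.89 and 4.51 CPM in the ABpIF/F mice. Its fall of 2.66 ± 0.38 on the log2 scale (adjusted p = 1.05e-05) was the deepest of the 8, and ABpIF/F overlapped with Ctrl (0.26 ± 0.40, adjusted p = 0.909). The other 5 GTPases fell by 1.13 (Irgm1) to 2.13 (Gbp6) in ABpIF/+. Of the 150-base stretches of Gbp6, 76.5% also occur in the predicted gene Gm43302, so its counts are uncertain.

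The antiviral genes and the GTPases differed in their place against Ctrl in BG183 and BG90, and less so in BG38. The split by class was not complete, as 10 of the 32 antiviral genes had the same calls as 7 of the 8 GTPases. Of 32 antiviral genes, 16 lay above every Ctrl mouse in BG183, 25 in BG90 and 30 in BG38, where 22.7%, 26.5% and 34.1% of the 20380 genes with a read did so. Of 8 GTPases, 1 did so in BG183, 2 in BG90 and 7 in BG38, so that the share in BG183 and BG90 was near or below that of all genes. In BG183, 4 of the 8 GTPases lay below every Ctrl mouse, against 17.1% of all genes. The class means of log2 CPM show the same. The antiviral mean was 3.36 to 3.72 in Ctrl, 2.22 to 2.77 in ABpIF/+ and 3.98, 4.70 and 5.44 in BG183, BG90 and BG38. The GTPase mean was 4.63 to 5.02 in Ctrl, 2.83 to 3.34 in ABpIF/+ and 4.65, 4.87 and 5.71 in the ABpIF/F mice. Within each mouse, the antiviral mean minus the GTPase mean was -1.55 to -1.06 in Ctrl, -0.74 to -0.56 in ABpIF/+ and -0.67, -0.16 and -0.27 in ABpIF/F, so both mutant groups lay above every Ctrl mouse. This difference of class means is a description without a test. Without BG38 the median log2 fold change in ABpIF/F vs Ctrl was 0.79 for the antiviral genes and -0.09 for the GTPases.

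Most further genes of the pathway, 78 symbols of which 71 were in the table, were not called. In ABpIF/+ vs Ctrl 15 fell, 4 rose and 52 were not called. In ABpIF/F vs Ctrl 10 rose, 1 fell and 60 were not called, and in ABpIF/+ vs ABpIF/F 25 were downregulated and 46 not called. Their median log2 fold changes were -0.14, 0.36 and -0.60, smaller in size than those of the members. Of the 71, however, 17 interferon genes had no read, so they stood at 0 in these medians and could not be called. By role, the medians in ABpIF/+ vs ABpIF/F ran from -2.64 for the other GTPases to 0 for the type I and III interferons. Without BG38, 4 rose in ABpIF/F vs Ctrl (Ifngr1, Ifnlr1, Aim2 and Gbp9), and with the clock score as a covariate 2 did (Ifngr1 and Ifnlr1), while the fall of Gbp10 there was called in both fits. Of 10 other GTPases found, 7 fell in ABpIF/+ and all 10 were downregulated against ABpIF/F. Irgm2 had 54.6 to 75.6 CPM (median 61.4) in Ctrl, 13.3 to 30.4 CPM (median 21.1) in ABpIF/+ and 64.6, 72 and 107 CPM in ABpIF/F, and fell in ABpIF/+ (-1.56 ± 0.16, adjusted p = 1.19e-07). Ifi47 fell likewise (-1.48 ± 0.17, adjusted p = 6.32e-07). Gbp10 was below Ctrl in both mutant groups. It had 14.9 to 27.6 CPM (median 20.9) in Ctrl, 0.189 to 0.403 CPM (median 0.302) in ABpIF/+ and 7.7, 2.61 and 9 CPM in the ABpIF/F mice, which is -6.09 ± 0.31, adjusted p = 2.27e-11 and -1.67 ± 0.29, adjusted p = 0.000326 against Ctrl. Gbp8 and Gbp9 were raised by 1.32 and 2.03 in ABpIF/F vs Ctrl and not called in ABpIF/+ vs Ctrl, and the rise of Gbp8 was not called without BG38 or without BG90.

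Of 13 gamma-induced genes that are no GTPases, 6 fell in ABpIF/+ and 3 rose in ABpIF/F. Those that rose were Nlrc5, the activator of MHC class I genes, Tap1, the peptide transporter, and Ubd. Nlrc5 had 16.2 to 27.3 CPM (median 24.6) in Ctrl and 42, 49.7 and 62.1 CPM in ABpIF/F (1.10 ± 0.19, adjusted p = 0.000274), and Tap1 25.9 to 33.2 CPM (median 28.6) and 52.1, 61.9 and 78 CPM (1.12 ± 0.14, adjusted p = 6.25e-06). Ubd reached 1 CPM in BG183 and BG38 only, with 1.04, 0.429 and 7.15 CPM in the ABpIF/F mice. Without BG38 none of the 3 was called in ABpIF/F vs Ctrl, with log2 fold changes of 0.94 for Nlrc5 (adjusted p = 0.00526), 0.96 for Tap1 (adjusted p = 0.000158) and 1.61 for Ubd (adjusted p = 0.128). The T cell attractant Cxcl9 fell from 9.76 to 19.8 CPM (median 16.2) in Ctrl to 0.387 to 4.74 CPM (median 2) in ABpIF/+ (-2.75 ± 0.48, adjusted p = 0.000629), with 12.3, 13.1 and 32.5 CPM in ABpIF/F. Psmb10 and Psmb9, subunits of the immunoproteasome, fell by 1.00 and 1.22 on the log2 scale in ABpIF/+.

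Of 10 sensor genes found, 1 rose in ABpIF/+, 2 rose in ABpIF/F, and 5 were downregulated in ABpIF/+ vs ABpIF/F, among them Rigi, the RNA sensor RIG-I (-1.28 ± 0.19, adjusted p = 5.62e-05). Aim2, a sensor of cytosolic DNA, rose in both groups, from 1.07 to 2.15 CPM (median 1.63) in Ctrl to 3.96 to 11.8 CPM (median 6.08) in ABpIF/+ (2.02 ± 0.24, adjusted p = 7.53e-07) and 4.01, 4.86 and 4.49 CPM in ABpIF/F (1.44 ± 0.27, adjusted p = 0.000529). Mavs, the adaptor of the RNA sensors, was not called in any comparison. Socs3, which restrains cytokine receptors and is known as a target of STAT3, had 2.92 to 6.04 CPM (median 4.19) in Ctrl, 9.6 to 48.1 CPM (median 14.2) in ABpIF/+ and 6, 28.6 and 10.9 CPM in ABpIF/F, and rose in ABpIF/+ (2.31 ± 0.49, adjusted p = 0.00301). Socs1, which restrains the interferon receptors, stayed near or below 1 CPM and was not called. Isg20, an exonuclease listed with the inhibitors, was raised by 1.03 in ABpIF/F (adjusted p = 0.00929, not called without BG38 or without BG90). Ptpn6 was not called, as its changes stayed under 2-fold. It was lower in ABpIF/+ than in Ctrl (-0.76 ± 0.10, adjusted p = 3.97e-06) and in ABpIF/F (-0.78 ± 0.12, adjusted p = 9.575e-05).

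Summed markers of macrophages, T cells, NK cells and B cells were lower in ABpIF/+ than in both other groups, whereas neutrophil and cholangiocyte markers had other patterns. By log2 fold change all 44 members were lower in ABpIF/+ than in ABpIF/F, and 39 were lower than in Ctrl. The other 5 (Oas1a, Oas1g, Ifit2, Mx1 and Ifi44) were not lower than in Ctrl. The summed level of 12 macrophage and Kupffer cell markers was 441 to 613 CPM in Ctrl, 186 to 326 CPM in ABpIF/+ and 376, 713 and 918 CPM in BG183, BG90 and BG38. Of these 12, 7 fell in ABpIF/+ vs Ctrl and 8 were lower in ABpIF/+ than in ABpIF/F. Marco went the other way in ABpIF/+ vs Ctrl (0.53) and was not called. In ABpIF/F vs Ctrl, 0 were called by edgeR or DESeq2, with 1 higher and 1 lower at an unadjusted p under 0.05. Summed T cell markers (10 genes) were 3.50 to 6.44 CPM in Ctrl, 1.49 to 3.07 CPM in ABpIF/+ and 4.21, 3.89 and 13.7 CPM in ABpIF/F. NK and cytotoxic cell markers (8 genes) were 3.84 to 5.51, 1.74 to 2.80, and 5.78, 5.68 and 15.6 CPM in the same order. Most of these single genes were not called in ABpIF/+ vs Ctrl, with 2 of 10 T cell and 1 of 8 NK markers downregulated. Against ABpIF/F, 3 and 5 of them were downregulated in ABpIF/+. The 3 markers of plasmacytoid dendritic cells, known as makers of type I interferon, summed to 0.410 to 0.706 CPM in Ctrl, 0.0682 to 0.403 CPM in ABpIF/+ and 0.685, 0.393 and 0.499 CPM in BG183, BG90 and BG38. All 3 stayed under 1 CPM in every mouse. Siglech fell in ABpIF/+ (-4.36 ± 0.78, adjusted p = 0.000158), from a mean of 0.334 CPM in Ctrl to 0.012 CPM. Ccr9 (-0.82) was not called, nor was Cox6a2, which went the other way (2.93). The 5 B cell markers summed to 2.09 to 4.68 CPM in Ctrl, 0.271 to 2.08 CPM in ABpIF/+ and 5.38, 3.50 and 7.84 CPM in ABpIF/F, with 2 of 5 downregulated in ABpIF/+. Of 10 neutrophil markers, 9 were called upward in ABpIF/F vs Ctrl, 4 without BG38 and 0 with the clock score as a covariate. Their sum in BG183 was 5.38 CPM, against 2.58 to 4.57 CPM in Ctrl, and in ABpIF/+ vs Ctrl edgeR called 0 of them (5 higher and 1 lower at an unadjusted p under 0.05, and 2 up and 1 down by DESeq2). Endothelial markers (6 genes) summed to 144 to 220 CPM in Ctrl, 72.3 to 166 CPM in ABpIF/+ and 173 to 241 CPM in ABpIF/F, with 2 of 6 downregulated in ABpIF/+. The 4 cholangiocyte markers summed to 6.25 to 8.11, 13.7 to 26.9 and 28.6 to 66.6 CPM in the 3 groups. The higher sum in ABpIF/+ was that of Sox9 (2.61 ± 0.23, adjusted p = 8.84e-08), while Krt19 fell there (-1.21 ± 0.34, adjusted p = 0.00912) and Krt7 and Epcam were not called (-0.80 and -0.31). The part of these cells in the members' changes was not tested.

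**Figure D4:**
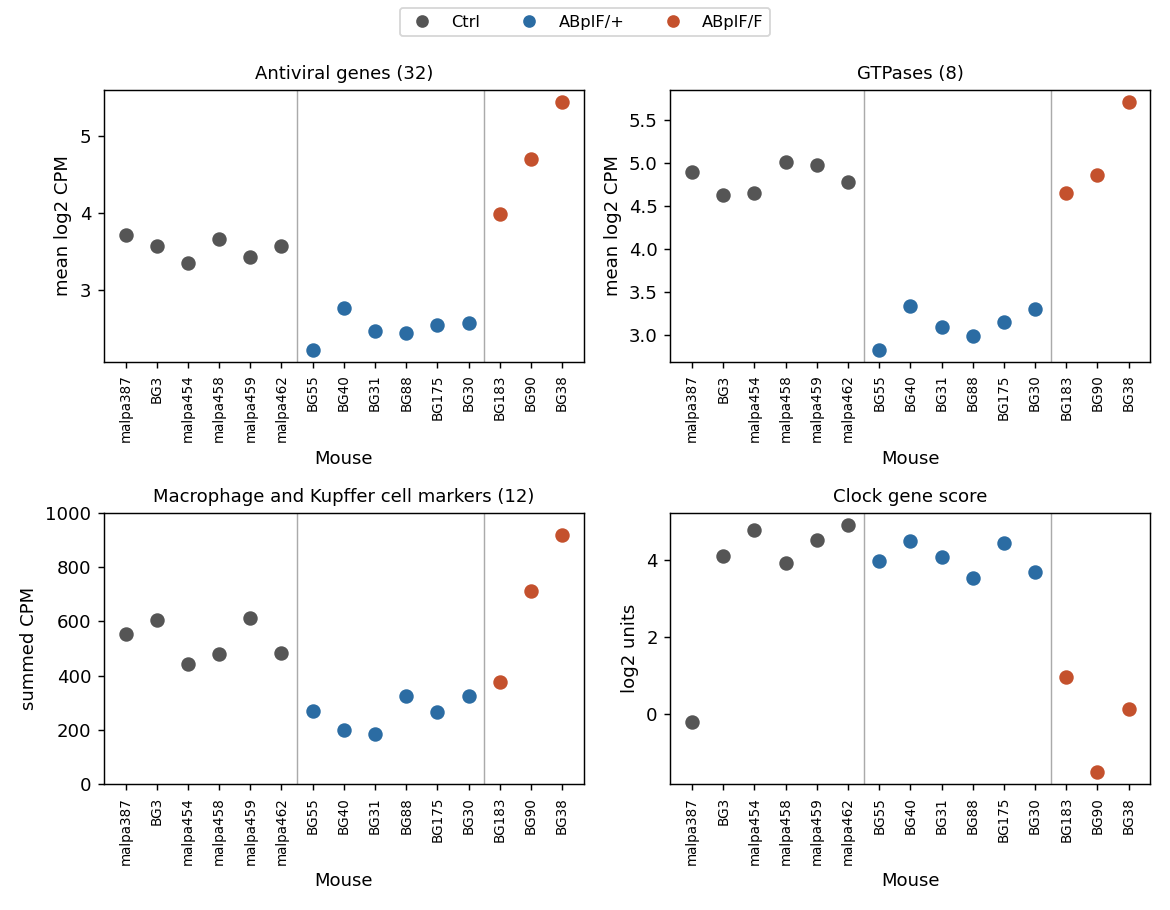
The panels give, per mouse, the mean log2 CPM of the 32 antiviral genes and of the 8 GTPases, the summed CPM of 12 macrophage and Kupffer cell markers, and the clock score in log2 units. All 6 ABpIF/+ mice lie below the other mice in the first 3 panels. The Ctrl mouse with a low clock score, malpa387, is the highest Ctrl mouse for the antiviral genes and lies within the other Ctrl mice for the GTPases.

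Clock state and genotype cannot be fully told apart in ABpIF/F, because all 3 ABpIF/F mice had a low clock score and only 1 other mouse did. That mouse, malpa387, had an antiviral mean of 3.72 log2 CPM, the highest of the Ctrl mice, against 3.98 or more in the ABpIF/F mice. Its GTPase mean of 4.90 lay within the range of the other Ctrl mice, against 4.65 or more in the ABpIF/F mice. In ABpIF/+ vs Ctrl, where the clock score overlapped, 25 of 44 members were downregulated with the score as a covariate and 23 without malpa387, against 26.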

How the data were processed

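Stranded mRNA libraries from 15 livers were sequenced with paired-end reads. The authors aligned the reads to mm10 with HISAT2 (version 2.21 in the submitters' processing notes) and counted them per gene with featureCounts 2.0.8. The deposited values are raw counts per gene and mouse, without normalization, and annotation and strand setting are not given in the sources used here. Of the 23 samples listed, 8 mice have 2 each, and the tables hold 1 column per mouse, so each mouse was 1 replicate and p-values measure the spread between mice. A second table of the same counts supplied the gene symbols. In it 5 columns with names made of numbers were not used, nor were the authors' own comparison columns, which hold fold changes and p-values.

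Counts of all 27179 genes were scaled by TMM and fitted with edgeR 4.0.16 (R 4.3.3) in its older quasi-likelihood form, with robust estimation and all 3 groups in 1 model. P-values were adjusted by Benjamini-Hochberg over all genes. Each fold change is given on the log2 scale with ± its standard error, which is the log2 fold change divided by the square root of the F statistic. CPM are counts relative to the TMM-scaled library size, and log2 CPM used a prior count of 2. The script was tested on simulated data. Full statistics are given, per role, for the 2 members with the highest mean CPM and the one with the largest change in ABpIF/+ vs ABpIF/F, and the other members appear by counts, ranges or as exceptions. Some pathway genes beyond the kinases, receptors, ligands and signal factors were named after their values were seen. The members and lists were chosen with earlier results of these data known. Alternatives were RLE scaling, DESeq2 1.42.0, other filters, fits and thresholds, leaving out each mouse, and the clock score as a covariate. Positions and promoters came from RefSeq on GRCm38, the assembly of mm10, and shared 150-base stretches from GENCODE M21 transcripts. Results of some pathway genes are not reported here.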

Additional observations from a re-analysis of the deposited data

Results flagged for a closer look

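Among the members with full statistics and the 3 class means, 5 of 48 groups of 6 mice held a mouse far from the others on log2 CPM, where chance would give about 5%. The gap to the nearest mouse was 0.807 of the group's range for Parp14 in the Ctrl mouse BG3 and 0.765 for Iigp1 in the same mouse, which was the lowest Ctrl mouse for both. BG3 is also the Ctrl mouse with the strain label of the mutant mice. It was 0.695 for Ifit1 and 0.645 for Igtp in BG55, the lowest ABpIF/+ mouse for both genes. It was 0.66 for Iigp1 in BG40, the highest ABpIF/+ mouse. Without BG55, the fall of Parp14 and of Ifit1 in ABpIF/+ was no longer called, and that of Ifit1 was also lost without any 1 of 5 other mice.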

How the results depend on the processing

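RLE scaling, DESeq2, genes passing filterByExpr, the newer quasi-likelihood form, no robust estimation, fits on only the groups compared and an adjusted p under 0.05 left every count of members within 1.5 times its value. Where a log2 fold change of 2 or more in size was required, 7 members were downregulated in ABpIF/+ vs Ctrl and 4 upregulated in ABpIF/F vs Ctrl, since fewer genes pass by construction. With the clock score as a covariate, 2 members were upregulated in ABpIF/F vs Ctrl and 17 downregulated in ABpIF/+ vs ABpIF/F, and the cause was not tested. Over all genes, 703 and 416 were called in these comparisons under that covariate, in both directions together. Leaving out each mouse gave 23 to 27 members downregulated in ABpIF/+ vs Ctrl, 10 (without BG38) to 25 (without BG183) upregulated in ABpIF/F vs Ctrl, and 36 to 41 downregulated in ABpIF/+ vs ABpIF/F, with medians from -1.26 to -1.11, from 0.52 to 1.23 and from -2.43 to -1.72. The 3 counts of 0 stayed at 0. In alternatives chosen after seeing the data, the pathway genes upregulated in ABpIF/F vs Ctrl went from 10 to between 4 (without BG38) and 13 (without BG183) on leaving out an ABpIF/F mouse, and to 2 with the clock score, and the neutrophil markers from 9 to between 4 (without BG38) and 9, and to 0 with the clock score, and the cause was not tested. Of 880 repeats of the 40 calls of single members with full statistics, 841 kept the call, 39 lost it and 0 changed direction, and 16 of the 39 came from the clock score. No paired analysis was possible because the replicate numbers only name mice or libraries of 1 mouse. The other deposited table was not run as an alternative, because 5 of its columns were not assigned to mice, and its other 10 columns hold the same counts.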
